A study of Drosophila melanogaster with 11 samples.

Results

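The genes hh, ptc, smo, ci, cos, fu, en and inv, which build the Hedgehog pathway of the fly and set up its source of signal, were looked up among the DNA sites marked by E(spl)m8-HLH, called m8 below, in Drosophila melanogaster embryos. They are 8 of 17557 genes that were looked up by name. The members were chosen as textbook genes of the pathway, with earlier results of these data known. A peak was assigned to each gene it intersected or, where it intersected none, to the genes named as flanking. All 8 are accounted for here, those without a peak included. The study holds 11 libraries in 6 conditions, from ChIP and DamID of Su(H), m5 and m8. The peak tables used here hold 1 of the 2 libraries of the condition m8 DamID un-driven, and the other 5 conditions were not analysed here. The embryos carried a UAS transgene for a fusion of Dam and m8 with no Gal4 driver, so that the leak of the UAS promoter was the source of the fusion protein. They were whole embryos of stage 9 to 16, raised at 26 °C. None of the 11 libraries is of unfused Dam. The labels state independent samples for each genotype, but the tables hold a single library, so no difference could be tested and no value has a replicate.

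Hedgehog is a secreted ligand. Without it, the receptor Patched holds the membrane protein Smoothened inactive, and a complex around the kinesin-like scaffold Costal-2 and the kinase Fused keeps the transcription factor Cubitus interruptus in a form that is trimmed to a repressor. With the ligand bound, Smoothened signals through this complex, and full-length Cubitus interruptus turns on target genes, ptc itself among them. In the embryonic segment, the homeodomain factor Engrailed and its relative Invected mark the posterior cells, which express hh and lack ci. The protein m8 is a basic helix-loop-helix repressor that Notch signaling switches on. In DamID, a bacterial methyltransferase fused to the protein marks adenines within GATC wherever the protein comes close to DNA, and DNA cut at marked sites is amplified and sequenced. A peak is thus a stretch of DNA near the fusion protein and not a measure of expression. In whole embryos, a weak mark in many cells and a strong mark in few cells cannot be told apart.

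The upstream sequences of ci and hh are shown because MACS peaks named these genes and no peak of Qseq, the other peak caller, did. The peak at ci also touched the first 545 bp of the gene. Both hh peaks lie below the lowest value that the Qseq table holds, so the absence of hh from it does not set the callers apart. Both sequences are the 250 bases before the start of the gene on the minus strand of Release 6, printed 5′ to 3′ as the genes are read, and both are from RefSeq. That of ci lies at chr4:57042-57291 and that of hh at chr3R:23141907-23142156. Capitals mark GATC, the site that Dam methylates, and CACNAG on either strand, the N-box to which E(spl) proteins can bind.
ci: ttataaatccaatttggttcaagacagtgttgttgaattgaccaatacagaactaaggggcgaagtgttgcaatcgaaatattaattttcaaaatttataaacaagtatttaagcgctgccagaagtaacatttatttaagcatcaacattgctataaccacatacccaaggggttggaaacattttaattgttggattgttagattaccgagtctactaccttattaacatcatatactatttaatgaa
hh: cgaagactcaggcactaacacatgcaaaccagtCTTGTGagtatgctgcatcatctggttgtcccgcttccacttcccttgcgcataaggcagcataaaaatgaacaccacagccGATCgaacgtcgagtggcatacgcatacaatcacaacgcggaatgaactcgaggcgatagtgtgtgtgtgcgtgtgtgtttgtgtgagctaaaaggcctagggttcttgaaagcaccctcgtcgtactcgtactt
The hh sequence holds GATC beginning 135 bases before the start, and an N-box on the opposite strand beginning 217 bases before it. The ci sequence holds neither. Windows of the same length before the 8 members held GATC in 5 cases, against 38.1% of the windows before all 13921 protein-coding genes. The N-box was found at 3 members (hh, ptc and cos), against 23.8% of all genes. The other searched letters, CACGTG and CACGCG on both strands, were found at 0 members, against 2.87% and 4.10% of all genes. None of the motifs can match the whole of the same stretch as another, though matches can share letters at their ends. These matches describe letters and not binding.

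The density of GATC sites limits where DamID can give reads, so it was counted over each gene. It was 4.66 per kb in hh, 3.92 in ptc, 3.27 in smo, 3.85 in cos, 5.51 in fu, 3.11 in ci, 4.52 in en and 3.92 in inv. The median over all protein-coding genes was 3.89 per kb, with quartiles of 2.74 and 5.24. Of the 8 members, fu alone was outside these quartiles, and it lay above them. Whether site density bears on which members have peaks was not tested.

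Among the 8 genes, ptc was named by the strongest peaks, inv by a moderate one and en by weak ones. With MACS alone, hh was named by weak peaks and ci by a moderate one. The strongest Qseq peak that named ptc lies between CG8635 and ptc, and the strongest peak inside ptc came from MACS alone. Among Qseq peaks that intersect a member, the highest lay in inv. No peak in any table named smo, cos or fu. The Qseq table of the library holds 3973 peaks of 20.3 to 14474 RPM (reads per 1000000 reads of the library) and a median value of 40.5 RPM. The table was cut at a minimum of 20 RPM. In it, 8 peaks named a member, with 23.9 to 222.8 RPM and a median value of 36.6 RPM. Of these, 4 intersect a member and 4 lie between genes, whereas 74.7% of all Qseq peaks intersect a gene. The 8 peaks named 3 of the 8 members (ptc, en and inv), against 13.3% of all 17557 genes. Each of the 3 was also intersected by a peak, against 10.1% of all genes. The table made with MACS above 20 RPM holds 4209 peaks of the same library with a median of 54.0 RPM. It named 4 of the 8 (ptc, ci, en and inv), with 12 peaks, against 17.6% of all genes. With its 1310 peaks under 20 RPM added, 5 of the 8 were named, against 22.1% of all genes. Over the 3 tables, 26 peaks named 5 of the 8 members, against 22.7% of all genes.

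Long genes are named more often in these tables, so the members were also set beside genes of their own length. Of the 4 members up to 5 kb (smo, cos, fu and en), 1 was named by a Qseq peak, against 6.97% of genes of that length, and the same 1 by any table, against 14.1%. Of the 3 members over 5 and up to 20 kb (hh, ptc and ci), 1 was named by Qseq, against 32.3%, and all 3 by any table, against 51.1%. The gene inv is over 20 kb and was named by Qseq, as were 53.2% of such genes, and by any table, as were 70.1%. With 8 genes these shares are a description.

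**Figure D1:**
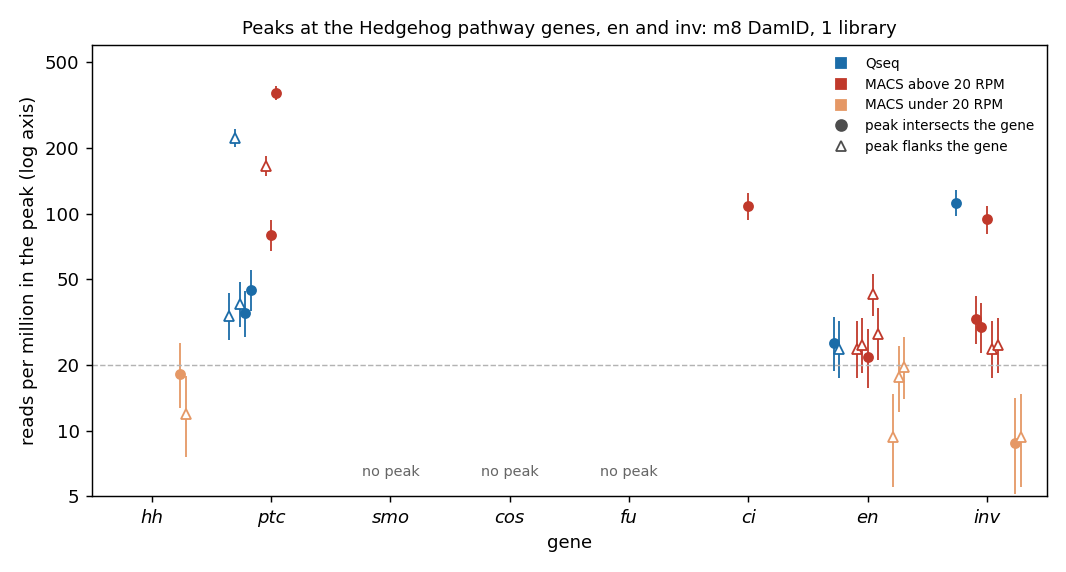
RPM of every peak that names a member (log axis) by gene, with exact Poisson 95% intervals. Filled circles are peaks that intersect the gene and open triangles are peaks that flank it, coloured by table, and the dashed line is at 20 RPM. The 3 peaks between inv and en are drawn at both genes. The points at ptc reach 361.0 RPM, the points at hh are all under 20 RPM, and smo, cos and fu have none.

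The ligand gene hh, 13738 bp on 3R, was named by no Qseq peak and by no MACS peak above 20 RPM. It had 2 peaks in the MACS table under 20 RPM, a range that the Qseq table does not hold. A peak that intersects the gene, from 18967199 to 18967937 in the numbering of the tables, had 18.2 RPM, or 35 reads. Its exact Poisson 95% interval of 12.7 to 25.3 RPM reaches over the border of 20 RPM between the tables. Such intervals cover counting error and nothing else, because copies made by PCR do not stem from separate molecules. The other peak lay 3249 bp further on, between hh and unk, which is the upstream side of hh, and had 11.9 RPM (23 reads, interval 7.57 to 17.9). Its interval overlaps that of the peak in the gene. The stronger ranked 161 and the weaker 846 of the 1310 peaks under 20 RPM.

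The receptor gene ptc had 5 Qseq peaks and 3 MACS peaks above 20 RPM, which merge into 5 separate stretches along the gene and its upstream side. It lies on the plus strand of 2R, is 15575 bp long in Release 6, and its upstream neighbour CG8635 ends 17686 bp before it. Positions of the tables on 2R do not match Release 6, so the start of ptc was placed from the peaks themselves. One peak was named as flanking up to 4536085 and an overlapping one that ends at 4537310 was named as intersecting ptc, so the start lies between 4536086 and 4537310.

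The strongest Qseq peak, from 4530709 to 4531483, ended 4602 to 5826 bp upstream of this start. Like the MACS peak over it, it named CG8635 as well as ptc. It held 429 reads, or 222.8 RPM (interval 202 to 245). It ranked 171 of 3973, with 4.30% of all Qseq peaks as high, and per length it ranked 69 at 288 RPM per kb. The MACS peak over it, from 4530232 to 4532136, had 166.2 RPM (320 reads, interval 149 to 185). The 2 callers thus gave intervals that do not overlap for the same reads and site, although the MACS peak is the longer. Further upstream, a Qseq peak from 4528589 to 4529289 had 33.8 RPM (65 reads, interval 26.1 to 43.0), and no MACS peak overlapped it. The stronger peak exceeded the weaker beyond counting error.

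At the start of ptc, Qseq placed a pair of peaks 480 bp apart. The peak on the upstream side, from 4534938 to 4536085, had 38.4 RPM (74 reads, interval 30.2 to 48.3). The peak that intersects ptc, from 4536566 to 4537674, had 34.8 RPM (67 reads, interval 27.0 to 44.2). These values differ by less than counting error. MACS joined them in a single peak from 4534847 to 4537310 of 79.5 RPM (153 reads, interval 67.4 to 93.1), which spans the start of the gene.

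Inside ptc, the highest MACS peak of any member ran from 4542229 to 4544924, beginning 4919 to 6143 bp past the start. It held 695 reads, or 361.0 RPM (interval 335 to 389), and ranked 75 of 4209, with 1.81% of the MACS peaks above 20 RPM as high. Per length it had 134 RPM per kb and ranked 152. No Qseq peak overlapped it. Of the 76 MACS peaks that were as high or higher, itself included, 23 (30.3%) had no overlapping Qseq peak. The next Qseq peak began 1014 bp beyond it, from 4545939 to 4546777, with 44.7 RPM (86 reads, interval 35.7 to 55.2). The order of the sites that named ptc therefore depended on the caller. The upstream site, which also names CG8635, was first in Qseq and the site inside the gene was first in MACS.

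**Figure D2:**
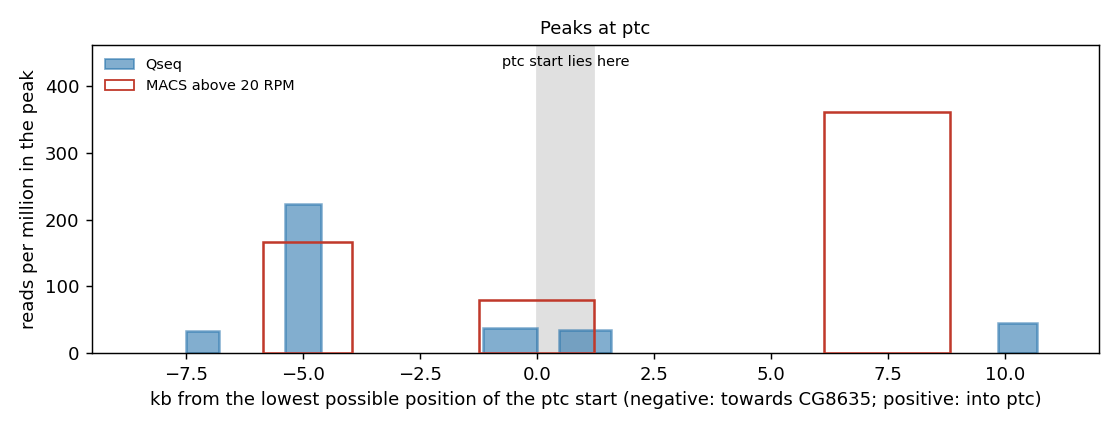
RPM of the peaks at ptc (bar height) against distance in kb from the lowest possible position of the ptc start, with bar width to scale. Filled bars are Qseq peaks, open bars are MACS peaks above 20 RPM, and the grey band is the stretch of 1225 bp within which the start of ptc lies. The tallest Qseq bar, of 222.8 RPM, lies upstream of the start and the tallest MACS bar, of 361.0 RPM, lies inside the gene with no Qseq bar over it.

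The 5 Qseq peaks of ptc added up to 374.5 RPM. Of these, 3, the one of 222.8 RPM among them, lay between CG8635 and ptc. They name both genes and cannot be given to either. The 2 that intersect ptc had 34.8 and 44.7 RPM. At least 5 Qseq peaks were reached by 152 of the 2339 named genes (6.50%), or 0.866% of all genes. Genes were not matched for length in these shares. The genes with 5 Qseq peaks and the nearest sums were Eip78C with 373.5 RPM, CG42342 with 376.6 RPM and CG12769 with 367.2 RPM. Eip78C encodes a nuclear receptor of the ecdysone response. Their highest peaks were 146.0, 221.3 and 120.5 RPM in the same order, beside 222.8 RPM at ptc. Of their peaks, 4, 5 and 3 intersected the gene, beside 2 at ptc. All of these values come from 1 library.

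The gene smo, for the signal transducer that Patched inhibits, was named by no peak. It is 4586 bp long and lies at 277582 to 282167 on the plus strand of 2L, where the tables and Release 6 share their numbering near the tip of the arm. The genes it overlaps are CG17078 and CG11601. The nearest Qseq peak lay 3825 bp beyond its 3′ end and intersects CG3625, from 285993 to 287209 at 104.4 RPM. The MACS peak at this place had 99.7 RPM and began 3323 bp beyond smo. Both peaks name CG3625 alone.

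The genes cos and fu, for the scaffold and the kinase of the complex that holds Cubitus interruptus, were also named by no peak. The gene cos is 4940 bp long and lies 276 bp from Dscam1, which encodes a cell adhesion molecule of axons. A Qseq peak of 41.6 RPM intersected Dscam1, under its older name Dscam, and MACS peaks of 35.3, 349.6 and 70.6 RPM did so too. On the X chromosome, fu is 3450 bp long and overlaps CG6696. Between CG6696 and phm, on the side away from fu, lay Qseq peaks of 97.7 and 20.8 RPM, MACS peaks of 83.6 and 67.0 RPM and a MACS peak of 17.7 RPM in the table under 20 RPM. The distance of these peaks to cos and fu was not measured.

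The transcription factor gene ci, 9332 bp on chromosome 4, was named by a MACS peak but by no Qseq peak. The peak ran from 76632 to 78700 in the numbering of the tables. These positions lie outside ci in Release 6, which runs from 47710 to 57041. On chromosome 4, Qseq peaks overlapped the Release 6 span of the gene they intersect for 6 of the 13 names checked. The ci peak held 208 reads, or 108.0 RPM (interval 93.9 to 124), and ranked 874 of 4209, with 21.0% of peaks as high. Per length it had 52.2 RPM per kb and ranked 1741. The peak named CR43957 beside ci. In Release 6 this antisense RNA gene shares 545 bp with ci, up to base 57041 where ci starts, so a peak that meets both genes touches the first 545 bp of ci. The sequence printed for ci lies just upstream of that stretch.

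The genes inv and en lie next to each other on 2R and point towards each other, so that the 14310 bp between them are downstream of both. The 49274 bp between en and tou are upstream of en. In all 3 tables combined, 15 peaks named en or inv, 3 from Qseq, 8 from MACS above 20 RPM and 4 from MACS under 20 RPM. They spanned 69760 bp and merge into 12 separate stretches. Outside the strongest stretch, no peak was above 42.6 RPM.

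The strongest site lay inside inv, a gene of 35231 bp. Qseq placed it from 7382372 to 7383466 with 215 reads, or 111.7 RPM (interval 97.2 to 128), at rank 535 of 3973, with 13.6% of peaks as high. MACS placed it from 7382208 to 7383477 with 94.0 RPM (181 reads, interval 80.8 to 109), at rank 1082 of 4209. Here the intervals of the callers overlap. MACS alone gave 2 further peaks that intersect inv above 20 RPM, of 32.7 RPM from 7370235 to 7371136 and of 30.1 RPM from 7375943 to 7376745. It also gave a weak peak of 8.83 RPM (17 reads) from 7389614 to 7390005.

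Between inv and en, MACS placed peaks of 23.9 RPM from 7399092 to 7399737 and of 24.9 RPM from 7399784 to 7400660, and a weaker peak of 9.35 RPM from 7406046 to 7406452. Qseq placed none there. These 3 peaks name both genes and cannot be given to either.

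The gene en, of 4205 bp, was intersected by a single site close to the border of the tables. Qseq gave it 25.5 RPM (49 reads, interval 18.8 to 33.6) from 7413348 to 7413931, at rank 3140 of 3973. MACS gave it 21.8 RPM (42 reads, interval 15.7 to 29.5) from 7413325 to 7413948. On the upstream side, the stretch towards tou held 5 peaks. The Qseq peak from 7424792 to 7425250 had 23.9 RPM (46 reads, interval 17.5 to 31.9), and MACS gave the same site 17.7 RPM in its table under 20 RPM. A MACS peak from 7428409 to 7429141 had 19.7 RPM (38 reads, interval 14.0 to 27.1), the highest value of that table, which 4.12% of its peaks share. Farther from en, MACS placed 42.6 RPM (82 reads, interval 33.9 to 52.9) from 7434005 to 7434748 and 28.1 RPM (54 reads, interval 21.1 to 36.6) from 7439161 to 7439994. No Qseq peak overlapped these last 3. The site of 42.6 RPM was the highest that named en. Among MACS peaks, its interval lies above that of the peak that intersects en. It was picked as the highest, so this is a description.

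The gene tou, at the far end of this stretch, encodes a bromodomain protein and had one of the highest peaks of the library. Its Qseq peak from 7486205 to 7488801 had 1367 RPM (2632 reads, interval 1315 to 1420) and ranked 9, and its MACS peak of 979.7 RPM (interval 936 to 1025) ranked 3. It began 46210 bp beyond the last peak between en and tou and names tou and not en.

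**Figure D3:**
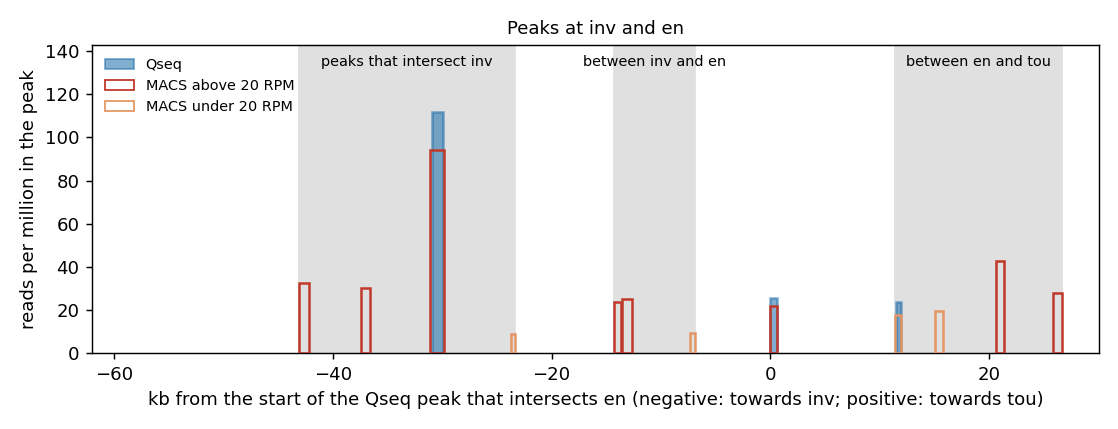
RPM of the 15 peaks at inv and en (bar height) against distance in kb from the start of the Qseq peak that intersects en, with bar width to scale. Filled bars are Qseq peaks and open bars are MACS peaks above and under 20 RPM. Grey bands mark the stretches in which peaks name inv, both genes as flanking genes, or en and tou. A bar of 111.7 RPM inside inv stands over bars of 42.6 RPM or less elsewhere.

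The callers shared fewer of the members' sites seen by MACS than of those seen by Qseq. Of the 8 Qseq peaks of members, 6 were overlapped by a MACS peak of either table by at least 1 bp, against 78.3% of all Qseq peaks. Of the 12 member peaks of MACS above 20 RPM, 4 were overlapped by a Qseq peak, against 62.3% of all such peaks. In the table under 20 RPM it was 1 of 6, against 6.03% of its 1310 peaks. The Qseq table holds no peak under 20 RPM, so the cutoffs limit this last overlap and it does not compare the callers. For Qseq peaks that lie wholly inside a MACS peak, the MACS peak should hold at least as many reads. At members it held fewer in 4 of 5 cases, with a median ratio of MACS to Qseq of 0.842. Among all such peaks it held fewer in 1029 of 2433 cases (42.3%), with a median ratio of 1.08. How each caller counted reads is not stated.

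**Figure D4:**
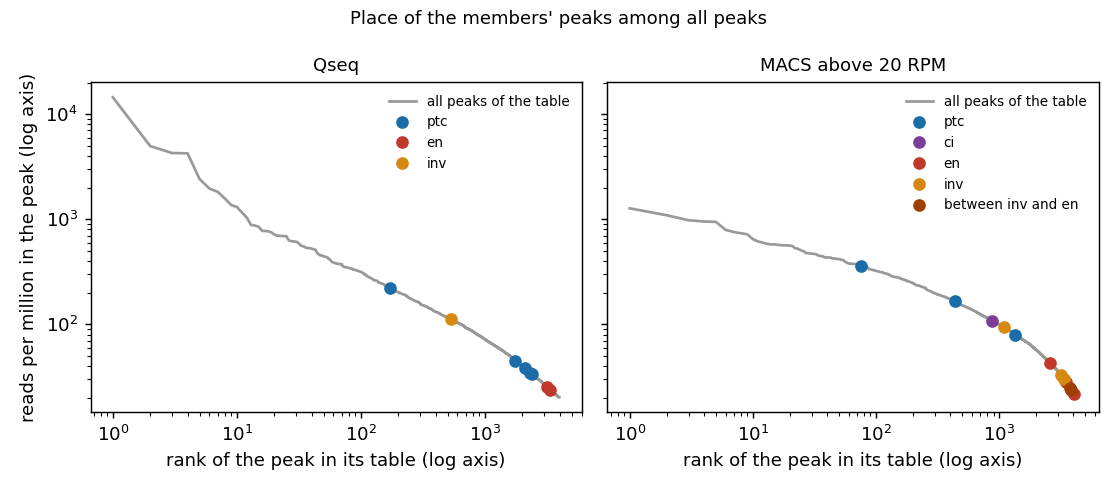
RPM of each peak against its rank in its table (log axes), for Qseq and for MACS above 20 RPM. The grey line holds all peaks of the table and the coloured points are the peaks of the members. The highest peaks that name ptc have ranks 171 and 75, and the other ptc points lie further right. The en points have 42.6 RPM or less.

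Other genes of the Hedgehog pathway were looked up by a list of 24 textbook genes. The list was chosen with earlier results of these data known, so its shares are a description. Of the 24, Su(fu) could not be found because the tables cut names at a bracket. Of the other 23, a Qseq peak named 11, each of them also by an intersecting peak, against 13.3% of all genes. A MACS peak above 20 RPM named 16, against 17.6%, and any table named 18, against 22.7%. The genes dally and dlp encode glypicans that carry Hedgehog at the cell surface. Their highest Qseq peaks had 288.8 RPM (interval 265 to 314) at dally, which had 6 peaks, and 72.7 RPM (interval 61.2 to 85.8) at dlp. The gene ttv, for an enzyme that makes their sugar chains, had 106.5 RPM (interval 92.4 to 122). The gene rdx, for an adaptor that targets Cubitus interruptus for degradation, had 8 peaks of up to 142.3 RPM (interval 126 to 160). Among kinases that phosphorylate pathway proteins, gish had 121.5 RPM (interval 106 to 138) and Pka-C1 45.2 RPM (interval 36.2 to 55.7). The 5 named by no table were rasp, sotv, botv, ihog and krz. Of the 23, the 9 over 20 kb, dally, ttv and rdx among them, had 8 named by Qseq, against 53.2% of genes of that length. The 9 over 5 and up to 20 kb had 2, against 32.3%, and the 5 up to 5 kb had 1, against 6.97%.

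Genes of the segment polarity network and of the response to Hedgehog were looked up by a list of 15. Earlier results of these data were known when the list was chosen, so its shares too are a description. A Qseq peak named 12, of which 7 were intersected, against 13.3% and 10.1% of all genes. MACS above 20 RPM also named 12, against 17.6% of all genes, and any table named all 15, against 22.7%. Of the 15, the 5 over 20 kb (dpp, sr, kn, Ser and nkd) had 4 named by Qseq, against 53.2% of genes of that length. The 6 over 5 and up to 20 kb had 5, against 32.3%, and the 4 up to 5 kb had 3, against 6.97%. These last 3 (gsb, slp1 and slp2) were named only by peaks between genes and intersected by none. A peak of 30.1 RPM names both gsb and gsb-n, and one of 33.2 RPM both slp1 and slp2, so neighbours were counted from the same peak. The highest Qseq values were 94.0 RPM (interval 80.8 to 109) at nkd, an inhibitor of Wingless signaling, and 84.7 RPM (interval 72.2 to 98.7) at dpp, the gene of a BMP ligand that Hedgehog induces in imaginal discs. The gene arm, for beta-catenin of the fly, had 73.2 RPM and kn 60.3 RPM. The peaks of slp2, at 64.4 RPM, and of mid, at 57.7 RPM, lay beside the genes. The gene wg, for the Wingless ligand, had 36.9 RPM with Qseq and up to 89.3 RPM with MACS. All of these are below the 222.8 RPM of the peak between CG8635 and ptc, and only rho, Ser and bap had no Qseq peak.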

How the data were processed

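DNA from embryos was sequenced after DamID. The authors assembled reads of 100 bp with DNASTAR SeqMan NGen, called peaks with Qseq, and deposited for each peak its RPM (reads per 1000000 reads), and for Qseq its read count. The settings of MACS are not stated, nor what the different cutoffs in the names of its tables mean. Counts and RPM implied a total of 1925156 reads, and MACS RPM gave whole reads within 0.01 in 100% of peaks. All table columns used were matched, and 0 were left unmatched. The submitters' processing notes name dm6, yet the gene a Qseq peak intersects overlapped it in Release 6 for 99.3% of names on 2L, 65.9% on 3L, 46.2% on 4, 3.22% on X and 0% on 2R and 3R. Positions were therefore not converted. Of 4348 names, 4055 (93.3%) matched Release 6.

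Genes named are the 8 members with every peak, up to 6 genes of each other list with the highest RPM, genes named beside a member, and 3 genes with as many Qseq peaks as ptc and the nearest sums. The members and lists were chosen with earlier results of these data known. CG3625, Dscam1, phm, wg, lack, Cul3 and dco were named after their values were seen. Intervals are exact Poisson at 95%, checked on simulated data. Alternatives were intersecting peaks only, any named gene, peaks at or above the median, the MACS tables, RPM per kb and an overlap of at least 50% of the shorter peak. Software was scipy 1.17.1, pandas 2.3.3, numpy 2.4.6, matplotlib 3.10.9 and Python 3.11.15.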

Additional observations from a re-analysis of the deposited data

How the results depend on the processing

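No paired analysis was possible because only 1 library of a single condition is tabulated. Of 25 values under alternatives, 15 stayed within their interval or within 1.5 times the count, and 10 moved. The 8 Qseq peaks of members became 4 when only intersecting peaks were taken, 3 at or above the median of the table, and 18 in both MACS tables together. The 3 members named by Qseq became 5 in both MACS tables. These tables include peaks under 20 RPM, which the Qseq table does not hold. With MACS above 20 RPM alone, 12 peaks named 4 members, both within 1.5 times the Qseq count. From Qseq to MACS above 20 RPM, the highest value at ptc moved to 361.0 RPM, against 222.8 RPM. At en it moved to 42.6 RPM, against 25.5 RPM, and at inv to 94.0 RPM, against 111.7 RPM. The ci peak of 108.0 RPM had no Qseq peak to set beside it and was counted among the values that moved. The 12 genes of the segment polarity list became 7 with intersecting peaks only and 6 with peaks at or above the median. The cause of these moves was not tested.

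The border of 20 RPM between the MACS tables lies just above 38 reads, so the side on which the hh peak of 18.2 RPM and the en peak of 21.8 RPM fall is within counting error. Without a library of unfused Dam, sites where Dam marks open DNA by itself and sites of m8 cannot be told apart.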

Other observations

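Of the other Hedgehog pathway genes without a Qseq peak, MACS above 20 RPM gave lack 1272 RPM, the highest value of that table. Release 6 calls this gene Smurf, a ubiquitin ligase. MACS also gave 157.4 RPM at Cul3, for a ubiquitin ligase scaffold that works with rdx, and 98.7 RPM at dco, for a casein kinase. These genes were named after their values were seen, and each value comes from 1 peak of 1 library.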
